A study of Mus musculus with 6 samples.

Results

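The Polycomb group genes examined here are the PRC1 genes Bmi1, Rnf2, Cbx2, Cbx7 and Cbx8 and the PRC2 genes Ezh1, Ezh2, Eed and Suz12. They were chosen by name, as the genes whose symbol is the only one annotated to a probeset, and the probeset with the highest mean over the arrays stood for each gene. All 9 were found, among 14994 genes that could be tested. Eed had 2 probesets and the other 8 genes had 1 each.

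RNA came from KSL SLAM cells of mouse bone marrow, the marrow fraction richest in haematopoietic stem cells. The gate took cells without lineage markers, CD48 or CD41 that carried Sca-1, c-Kit and CD150. One group of mice was given G-CSF (granulocyte colony-stimulating factor, a cytokine that drives neutrophil production and mobilises stem cells) at 125 mcg/kg under the skin, 2 times a day, and the control group was given PBS (saline). Treatment lasted 7 days, and each group gave 3 independent pools of 5 to 10 mice, each hybridised to 1 MoGene 1.0 ST array. The sources used here do not give strain, age or genotype, and since the mice were pooled the spread between arrays is a spread between pools.

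Polycomb proteins keep genes silent through 2 complexes that modify histones. PRC2 places methyl groups on lysine 27 of histone H3 through a catalytic subunit, Ezh2 or its paralog Ezh1, which works only with the scaffold proteins Eed and Suz12. PRC1 attaches ubiquitin to histone H2A through the E3 ligase Rnf2 (Ring1b), partnered in its classical form by Bmi1 and guided to methylated chromatin by a Cbx protein. In blood stem cells Bmi1 is known for maintaining self-renewal through repression of the Cdkn2a locus, Cbx7 is associated with self-renewal, Cbx2 and Cbx8 with more differentiated progenitors, and Ezh2 with proliferating cells.

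Promoter windows of 300 bases, from 250 before to 50 after the transcription start, were taken from RefSeq (GRCm38.p6) to show what the start sites of these genes look like. They were found for 8 of the 9 genes, all but Cbx2. The windows held 17 (Eed) to 41 (Suz12) CpG dinucleotides, against a median of 7 over all 32851 windows of that length. Letters of the cell cycle factor E2F were searched on both strands as TTTCCCGC, TTTCGCGC, TTTGCCGC and TTTGGCGC, because Ezh2 is a known E2F target. The windows of Ezh2 and Suz12 held 1 match each, and 2.26% of all windows held at least 1. All these letters hold a CpG, and no share was taken over windows as rich in CpG as those of the Polycomb genes. The share over all windows is therefore not a like background. The matches stand in capitals in the stretches that follow, written in the direction of the gene; the Ezh2 stretch (chr6:47595020-47595179, minus strand) runs 11 bases past the start, and the Suz12 stretch (chr11:79992856-79993015, plus strand) opens its window.
Ezh2: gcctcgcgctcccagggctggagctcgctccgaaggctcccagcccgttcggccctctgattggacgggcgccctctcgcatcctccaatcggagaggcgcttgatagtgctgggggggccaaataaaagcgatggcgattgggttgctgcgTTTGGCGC
Suz12: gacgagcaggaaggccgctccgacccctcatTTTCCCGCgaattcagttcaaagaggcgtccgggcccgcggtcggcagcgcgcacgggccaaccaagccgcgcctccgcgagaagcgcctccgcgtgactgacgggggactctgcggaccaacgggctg
The STAT letters TTCNNNGAA, searched because the G-CSF receptor signals through STAT3, were in 0 of the 8 windows and in 8.3% of all windows. That share is not a like background either. The 8 windows held 54.67% (Eed) to 72.67% (Rnf2) G and C, against a median of 52.7% over all windows. With so few windows, finding 0 matches is little different from a share of 8.3%. A match of letters is a description of the window and not evidence of binding.

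Signals are log2 intensities, and a difference is always G-CSF minus PBS. Array medians lay between 56.2 and 61.7 on the linear scale, and their rank correlation (Spearman's rho, across the genes tested) was 0.836 to 0.895. The number of arrays limits the precision. The sort gene Kit was at 10.01 ± 0.23 (mean ± SD, n = 3) with PBS and 9.04 ± 0.36 with G-CSF. Slamf1 (CD150), the other sort gene named, overlapped, at 6.51 ± 0.13 and 6.32 ± 0.33 (difference -0.20, SE 0.20), and the brightest stem cell marker, Hlf, was at 10.49 and 10.33. Neutrophil transcripts were present in both groups and their list mean was 8.71 ± 0.55 with PBS and 10.40 ± 0.32 with G-CSF. Among the brightest genes of the lists for other cell types, Mpo (granulocyte progenitors) differed by 2.47, Lyz2 (monocytes) by 1.16, S100a9 (neutrophils) by 0.81, Car2 (erythroid) by -0.78, Mmrn1 (megakaryocytes) by -1.52, Emcn (endothelium, the lowest of a list in which 4 of 6 genes were positive, median 0.08) by -0.60, Vpreb1 (B cells) by -0.25 and Cd3e (T cells) by 0.07, and none of these passed the adjusted threshold.

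None of the 9 Polycomb genes passed limma's test for a difference between G-CSF and PBS arrays, with Benjamini-Hochberg adjustment over all genes (smallest adjusted p = 0.94, for Rnf2). At an adjusted p under 0.05, 0.0267% of all genes tested were called, 4 genes, all of them higher. That count was 0 without any one of the PBS replicates or without G-CSF replicate 2 or 3, 6 without G-CSF replicate 1 and 12 with quantile normalization again. Without adjustment 0 of the 9 had a p under 0.05, against 6.04% of all genes tested. In 0 of the 9 genes were the groups free of overlap, against 10.8% of all genes tested. The differences ran from -0.45 (Rnf2) to 0.22 (Ezh2) with a median of 0.06, where the median of all genes was 0.0015. All 9 lay between the 5th and the 95th percentile of all genes (-0.56 to 0.45). With whole-fraction RNA, fewer cells that express a gene and less RNA per cell cannot be told apart.

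**Figure D1:**
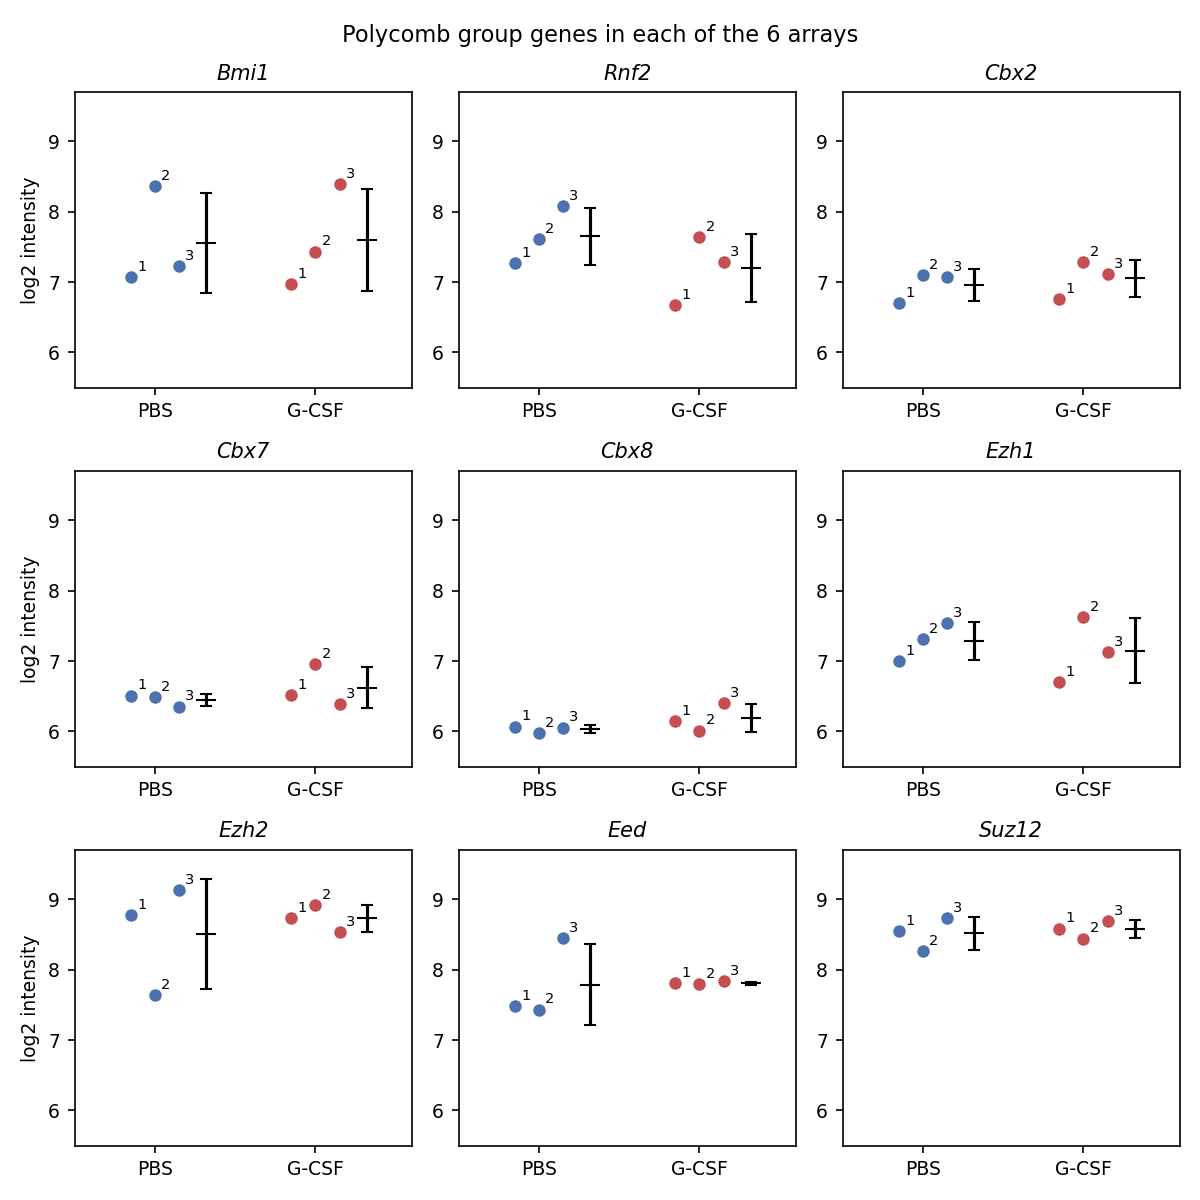
Log2 intensity of the 9 Polycomb genes in each array (points, numbered by replicate; blue PBS, red G-CSF), with the group mean and SD (n = 3) in black. The groups overlap in every panel; heights in different panels come from different probesets and are not levels to compare between genes.

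Rnf2, the ubiquitin ligase of PRC1, had the smallest p of the 9 genes. It was at 7.27, 7.61 and 8.07 in PBS replicates 1, 2 and 3 and at 6.68, 7.64 and 7.28 in the G-CSF replicates. Only G-CSF replicate 1 lay below all PBS arrays, while replicates 2 and 3 lay within the PBS range. The difference was -0.45 (SE 0.30, limma unadjusted p = 0.179), and its 95% interval of -1.16 to 0.26 (0.446-fold to 1.2-fold) includes no change. The difference was -0.19 without G-CSF replicate 1 and -0.24 without PBS replicate 3.

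Bmi1, the partner that stimulates the ligase, had the largest spread of the 9 genes. Its values were 7.07, 8.37 and 7.23 with PBS and 6.97, 7.43 and 8.39 with G-CSF. In each group 1 array stood about a log2 unit above the others, PBS replicate 2 and G-CSF replicate 3. The residual SD of 0.72 was at the 95.8th percentile of all genes tested, and the interval of the difference (0.04, SE 0.46) ran from -1.03 to 1.11. A change of 2-fold in either direction therefore lies inside the interval for Bmi1.

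The chromodomain readers Cbx2, Cbx7 and Cbx8 were measured more tightly. Cbx7 was at 6.51, 6.48 and 6.35 with PBS and at 6.52, 6.95 and 6.39 with G-CSF, a difference of 0.18 (SE 0.19, interval -0.27 to 0.62). Cbx8 was at 6.07, 5.97 and 6.06 with PBS and at 6.15, 6.01 and 6.41 with G-CSF, a difference of 0.16 (SE 0.16, interval -0.22 to 0.54). In both genes a single G-CSF array stood above the rest, replicate 2 for Cbx7 and replicate 3 for Cbx8. Without that array the difference was 0.0097 for Cbx7 and 0.048 for Cbx8. With it, the PBS SDs (0.08 and 0.05) were smaller than those with G-CSF (0.29 and 0.20). Cbx2 was at 6.70, 7.10 and 7.07 with PBS and at 6.76, 7.28 and 7.12 with G-CSF, a difference of 0.10 (SE 0.20, interval -0.38 to 0.57). Replicate 1 was the lowest array of its group in Cbx2. For these 3 genes the intervals exclude a change of 2-fold in either direction.

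Since a stem cell can use one Cbx protein in place of another, the change of one relative to another within each array was tested by exact permutation of the 6 arrays (two-sided). The exact test cannot give a p under 0.1 with 3 arrays a group. Cbx8 relative to Cbx7 differed by -0.02 (exact permutation p = 1) and Cbx2 relative to Cbx7 by -0.08 (exact permutation p = 1). Over the 3 pairs of paralogs compared, each adjusted p was 1. The spread of Cbx8 relative to Cbx7 was 0.11 (SD, n = 3) with PBS and 0.48 with G-CSF, where replicate 2 was at -0.94 and replicate 3 at 0.01.

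Ezh2, the catalytic subunit of PRC2 in dividing cells, was at 8.77, 7.64 and 9.13 with PBS and at 8.73, 8.91 and 8.54 with G-CSF. PBS replicate 2 stood apart below the other 5 arrays, which lay between 8.54 and 9.13. The difference was 0.22 (SE 0.37, interval -0.65 to 1.09), and without PBS replicate 2 it was -0.22. Ezh1, the paralog associated with non-dividing cells, was at 7.00, 7.31 and 7.53 with PBS and at 6.70, 7.62 and 7.12 with G-CSF. The G-CSF arrays held both its lowest and its highest value, and the difference was -0.13 (SE 0.27, interval -0.76 to 0.49). Ezh2 relative to Ezh1 differed by 0.35 (exact two-sided permutation p = 0.7, adjusted p = 1), from 1.23 ± 0.79 to 1.58 ± 0.40 (SD, n = 3), and by -0.10 without PBS replicate 2.

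The non-catalytic core subunits of PRC2 had differences close to 0. Eed, which binds the methylated histone tail, was at 7.48, 7.43 and 8.45 with PBS and at 7.80, 7.79 and 7.83 with G-CSF. The G-CSF arrays fell within 0.04 of one another, inside a PBS range of 1.02, and the difference was 0.02 (SE 0.28, interval -0.64 to 0.68). The second probeset of Eed was dim, between 3.94 and 4.70 in the 6 arrays, below the limit of 5.15 that the filter on dim probesets set. Suz12, the scaffold subunit, was at 8.55, 8.27 and 8.74 with PBS and at 8.58, 8.44 and 8.69 with G-CSF. All 3 G-CSF arrays lay inside the PBS range, and the difference of 0.06 (SE 0.18) had an interval of 0.778-fold to 1.39-fold. Over the 9 genes, the interval lay wholly within a 2-fold change for 6 (Cbx2, Cbx7, Cbx8, Ezh1, Eed and Suz12) and reached past it for Bmi1, Rnf2 and Ezh2.

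**Figure D2:**
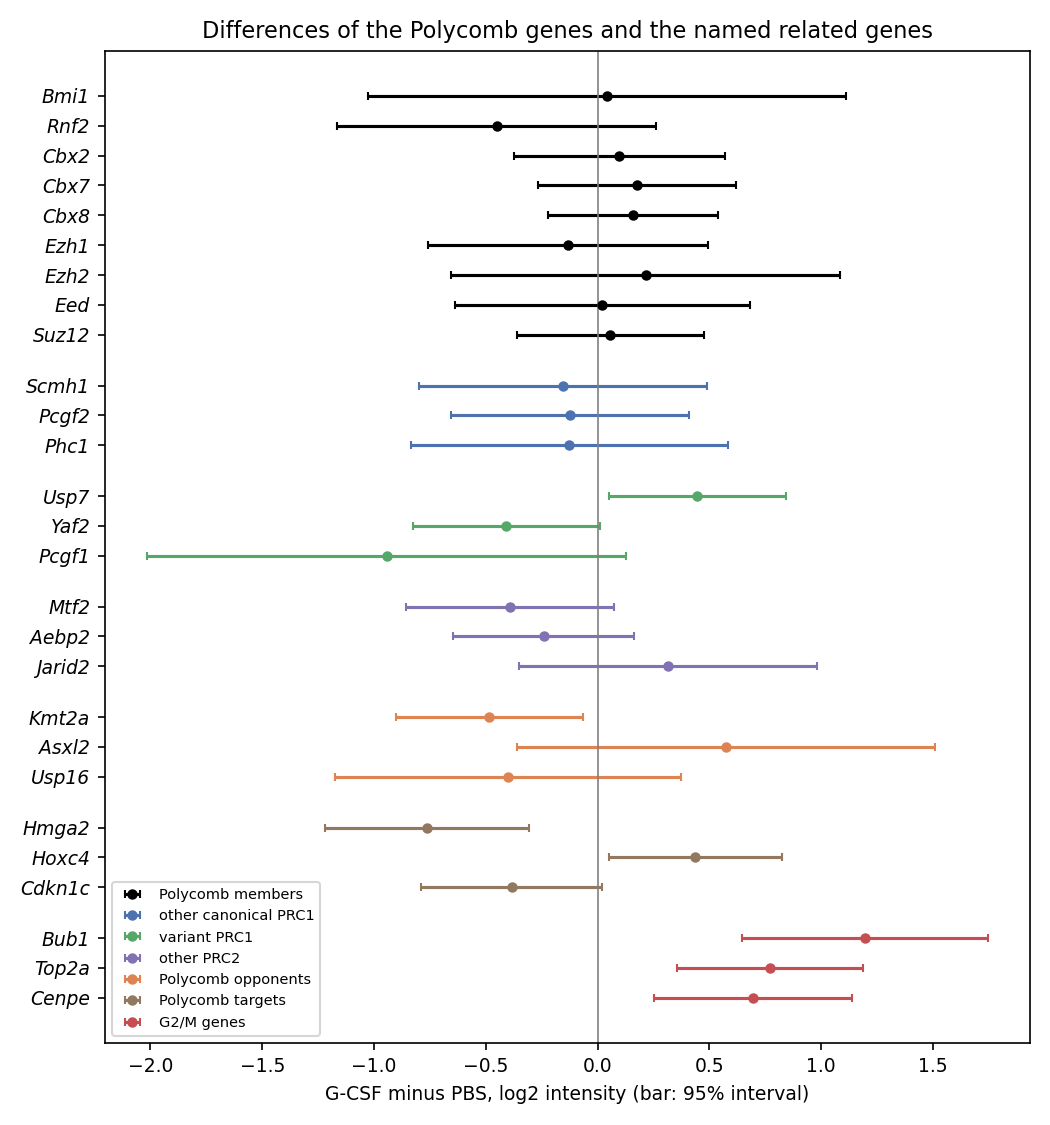
G-CSF minus PBS difference in log2 intensity (points) with limma's 95% interval (bars) for the 9 Polycomb genes (black) and the 3 genes with the smallest p of each related list (colours). The interval crosses 0 in all 9 Polycomb genes and is widest for Bmi1; the intervals are not adjusted for the number of genes tested.

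The genes followed different arrays within the groups. Ezh2, Eed and Suz12 each had their lowest PBS value in replicate 2 and their highest in replicate 3. The mean of the G2/M list (mitotic genes such as Mki67 and Top2a) had the same order in the PBS arrays, at 6.40, 6.03 and 6.43 in replicates 1 to 3. In the G-CSF arrays the G2/M mean was at 6.818, 6.881 and 6.815, with replicates 1 and 3 nearly equal. Ezh2 had that order too, whereas Eed and Suz12 were lowest in replicate 2. The separation of the groups was not shared. The G2/M mean was 6.28 ± 0.22 with PBS and 6.84 ± 0.04 with G-CSF (SD, n = 3), without overlap, whereas the 3 PRC2 genes overlapped. PBS replicate 3, where Ezh2, Eed, Suz12 and Rnf2 were highest, also had the highest value of the pre-B cell gene Vpreb1 (9.02, against 5.81 and 6.38 in the other PBS arrays), and of 8 listed B cell genes 4 could be tested, with list means of 5.92 to 6.94 in the PBS and 5.77 to 6.69 in the G-CSF arrays. Vpreb1 was also high in G-CSF replicate 2 (8.81). There Ezh2 (8.91) and Rnf2 (7.64) had their highest G-CSF values. Eed (7.79, in a G-CSF range of 0.04) and Suz12 (8.44) had their lowest. Ezh1 was the highest of its group in both of these arrays (7.53 and 7.62), whereas Cbx7 was lowest in PBS replicate 3 (6.35) and highest in G-CSF replicate 2 (6.95). The gate had removed lineage-positive cells, and the part of B cell RNA in these values was not tested.

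Bmi1, Rnf2, Cbx2 and Ezh1 had their lowest value of each group in replicate 1, for both groups. Cbx8, Eed and Suz12 had theirs in replicate 2 of both groups and Cbx7 in replicate 3 of both groups. Only Ezh2 had its lowest value in differently numbered replicates, 2 with PBS and 3 with G-CSF. The highest values shared a number only in Cbx2 (replicate 2), Eed and Suz12 (replicate 3 for both), and differed in number in the other genes. For Eed the G-CSF arrays spanned only 0.04, so its order there rests on small gaps. No share of equal numbers was taken over all genes, and whether the numbers pair the arrays cannot be read from these orders. In the G-CSF group replicate 1 was also the array with the lowest mean of the stem cell markers (7.53, against 8.07 and 7.78 in replicates 2 and 3), and in the PBS group its mean was lowest too (8.03, against 8.23 and 8.21). Of the 11 stem cell markers tested 10 had negative differences, as did 7447 of all 14994 genes tested. By limma 0 of the markers passed the adjusted threshold. At an unadjusted p under 0.05 were 2, Kit and Tek, against 6.04% of all genes tested in either direction. The list's part in the Polycomb values was not tested.

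Among all genes tested, the 3 whose pattern over the 6 arrays was nearest to that of Rnf2, the member with the smallest p, were Procr, Hadha and Vrk1. Likeness was the mean absolute distance between log2 values centred on each gene's own mean, and it was 0.068 for Procr, 0.0689 for Hadha and 0.071 for Vrk1. Procr encodes EPCR, a surface marker of blood stem cells, and was at 6.98, 7.45 and 7.72 with PBS and 6.45, 7.31 and 6.89 with G-CSF. Hadha encodes a mitochondrial enzyme of fatty acid oxidation and Vrk1 a nuclear kinase. With 6 arrays and 14994 genes, close patterns are easily found.

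**Figure D3:**
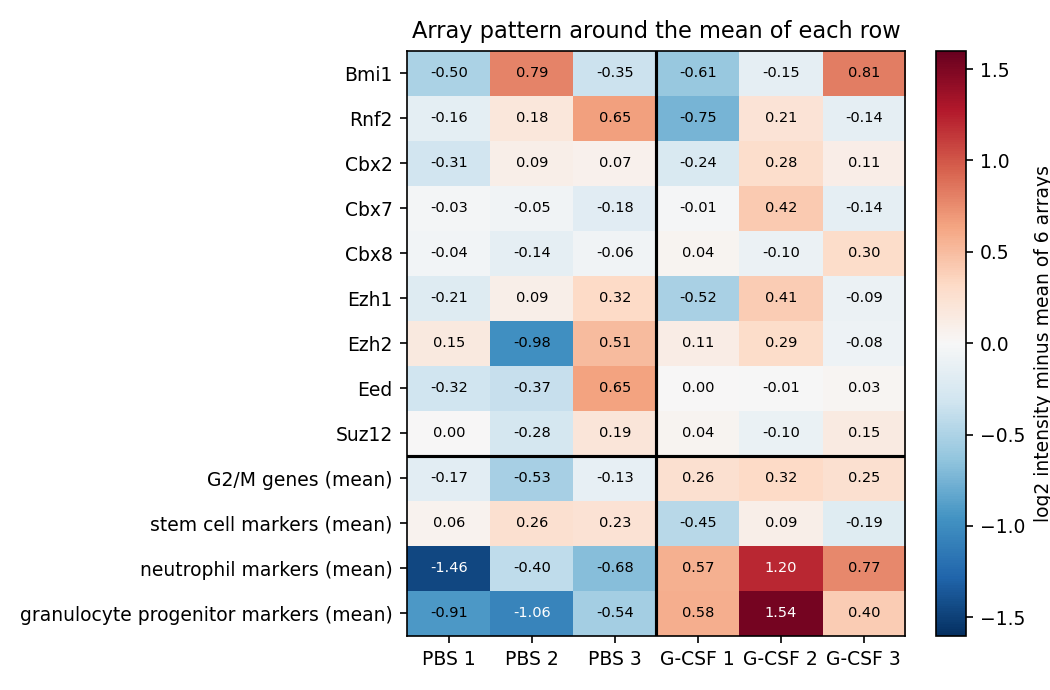
Log2 intensity minus the mean over the 6 arrays for the 9 Polycomb genes (upper rows) and for the mean of 4 marker lists (lower rows), by array; red is above and blue below the row's mean. Ezh2 is at -0.98 in PBS replicate 2 and Rnf2 at -0.75 in G-CSF replicate 1, while the neutrophil, progenitor and G2/M rows separate the groups.

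The other subunits and opponents of Polycomb were examined as lists. Over the lists of other PRC1 and PRC2 subunits, opponents and targets, 56 genes could be tested and 0 passed the adjusted threshold by limma. Without adjustment, 2 were higher and 2 lower at a p under 0.05, against 6.04% of all genes tested in either direction. Free of overlap between groups were 2 higher and 6 lower, where 5.77% and 5.05% of all genes tested were. The remaining classical PRC1 subunits (6 tested: Ring1, Pcgf2, Phc1, Phc2, Phc3 and Scmh1) had a median difference of -0.08 and overlapped in every gene. Their smallest p values belonged to Scmh1 (-0.16, SE 0.27), Pcgf2 (-0.12, SE 0.23), the closest paralog of Bmi1, and the polyhomeotic gene Phc1 (-0.13, SE 0.30).

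Variant PRC1, which replaces Bmi1 and Cbx subunits by other Pcgf proteins and Rybp or Yaf2, had a median difference of -0.05 over 15 genes. Usp7, a deubiquitinase that associates with PRC1, was at 8.53, 8.77 and 8.96 with PBS and at 9.14, 9.30 and 9.15 with G-CSF, a difference of 0.45 (SE 0.17, adjusted p = 0.761). Yaf2, an adaptor that takes the place of Rybp, was at 6.64, 6.91 and 6.58 with PBS and at 6.07, 6.37 and 6.46 with G-CSF, a difference of -0.41 (SE 0.18, adjusted p = 0.851). In both genes all G-CSF arrays lay on one side of all PBS arrays. The same held, on the lower side, for Kdm2b (-0.23), the CpG-binding subunit that guides variant PRC1, which was named after its values were seen. Pcgf1, the Kdm2b partner, differed by -0.94 (SE 0.46, adjusted p = 0.863) with overlapping groups, at 6.10, 6.99 and 7.75 against 5.32, 6.42 and 6.27.

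The accessory subunits of PRC2 had a median difference of -0.14 over 8 genes. Mtf2, which guides PRC2 to CpG-rich sites, was the only one without overlap, at 9.83, 9.74 and 10.13 with PBS and 9.72, 9.60 and 9.20 with G-CSF (difference -0.39, SE 0.20, adjusted p = 0.872). Aebp2 (-0.24, SE 0.17) and Jarid2 (0.32, SE 0.28), which mark the other form of PRC2, overlapped. None of these 3 passed.

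Genes that oppose Polycomb had a median difference of 0.02 over 13 genes. Kmt2a (MLL1), the trithorax methyltransferase of histone H3 lysine 4, was at 9.68, 9.25 and 9.22 with PBS and at 8.95, 8.80 and 8.95 with G-CSF. It was the only one of this list without overlap, with a difference of -0.49 (SE 0.18, adjusted p = 0.749). Asxl2 (0.57, SE 0.40), a subunit of the H2A deubiquitinase complex, had its lowest value in PBS replicate 2 (6.14, against 7.31 to 7.82 in the other 5 arrays). Ezh2 was also lowest in that array. This was not particular to them: Pcgf3 (5.42) and Mki67 (6.41) were lowest there too, and Kdm6a (8.30) was highest there. These last genes were named after their values were seen. Usp16, another H2A deubiquitinase, differed by -0.40 (SE 0.33).

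Of the genes known as Polycomb targets 14 could be tested, with a median difference of -0.06 and 0 past the adjusted threshold. Cdkn2a, which encodes p16Ink4a and p19Arf and was named after its values were seen, was at 5.44, 5.46 and 5.65 with PBS and at 5.84, 5.63 and 5.87 with G-CSF. The groups overlapped by a single pair of arrays, and the difference was 0.27 (SE 0.16, adjusted p = 0.932). Its values were close to the filter limit of 5.15. Hoxc4 differed by 0.44 (SE 0.16, adjusted p = 0.761), from 5.16, 5.22 and 5.22 to 5.81, 5.40 and 5.71, also near that limit and without overlap. The chromatin protein Hmga2 (-0.76, SE 0.19, adjusted p = 0.431) and the cell cycle inhibitor Cdkn1c (-0.39, SE 0.17, adjusted p = 0.853) lay lower in all G-CSF arrays than in all PBS arrays.

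In the G2/M list, the comparison for Ezh2 and Suz12, 14 of 15 genes tested had positive differences, as did 7547 of all 14994 genes tested. The list had a median of 0.55, and 7 of its genes were higher without overlap, against 5.77% of all genes tested. By limma 0 passed the adjusted threshold and 6 were higher at an unadjusted p under 0.05, against 2.73% of all genes. The mitotic checkpoint kinase Bub1, with 2 PBS arrays under the filter limit (5.25, 4.64 and 4.52, against 6.19, 5.78 and 6.03), differed by 1.20 (SE 0.23, adjusted p = 0.266). Its PBS mean of 4.81 lay under that limit of 5.15, so it was tested only through its G-CSF values, and the counts above include it. Topoisomerase Top2a differed by 0.77 (SE 0.18, adjusted p = 0.352) and the kinetochore motor Cenpe by 0.69 (SE 0.19, adjusted p = 0.479). Ezh2 (0.22) and Suz12 (0.06), the Polycomb genes with E2F letters in their windows, lay below the median of the G2/M list and above its lowest genes, Aurkb (-0.03) and Cdk1 (0.002), which were named after their values were seen. The gap to the list was not tested. Among the G2/M genes with a promoter entry, 1 of 12 held the same letters. Granulocyte progenitor markers lay higher with G-CSF as well, all 8 of them without overlap (5.77% of all genes tested), with list means of 6.43 to 6.95 with PBS and 7.90 to 9.03 with G-CSF, and their part in the G2/M values was not tested.

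**Figure D4:**
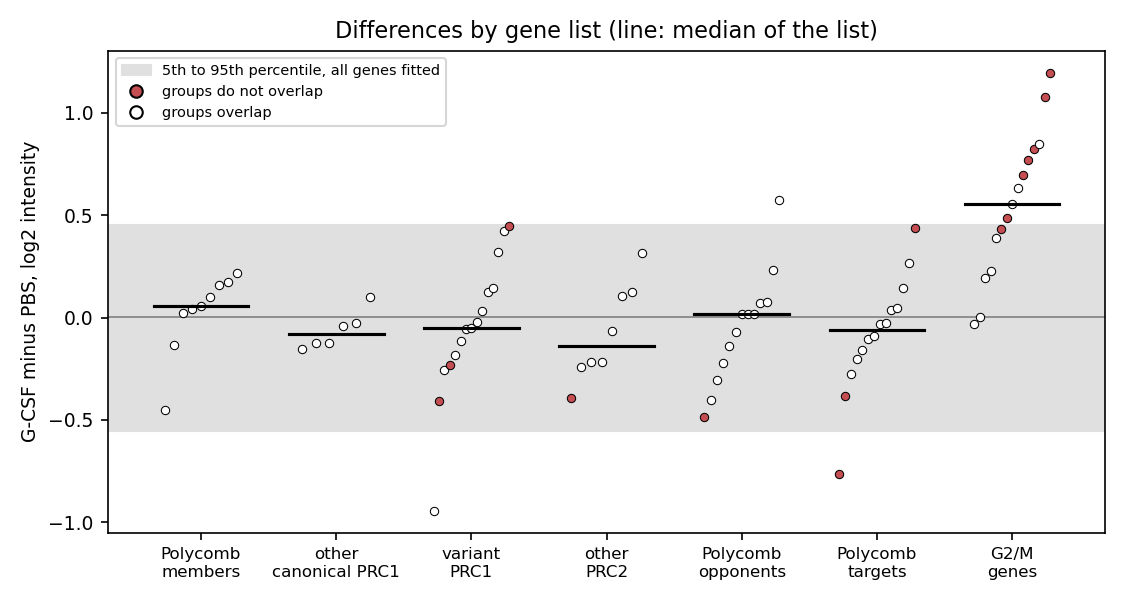
G-CSF minus PBS difference in log2 intensity of each tested gene, by list (points; red where the groups do not overlap), with the median of the list (line) and the 5th to 95th percentile of all genes tested (grey band, -0.56 to 0.45). The 9 Polycomb genes lie inside the band with no red point, and the G2/M list has a median of 0.55.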

How the data were processed

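The deposited values are linear intensities of 35554 probesets of 6 arrays, processed by the authors with RMA per the submitters' processing notes; the sources used here give neither its software or version nor the arrays it took together. Log2 was taken first. Of the probesets, 21789 had 1 gene symbol in the platform annotation (old symbols were updated by gene identifier through RefSeq, which held 21698), 1621 had several and 12144 were not listed. The dimmest 25% of those with 1 symbol (log2 mean up to 5.15) were left out, and the brightest probeset stood for a gene. Groups were compared with limma 3.58.1 in R 4.3.3 (lmFit, eBayes, two-sided, Benjamini-Hochberg over 14994 genes, threshold 0.05), checked on simulated data. Intervals of 95% are limma's. Named are the 9 members, 3 genes per related list with the smallest p, 3 genes nearest in pattern to the member with the smallest p, 2 sort genes and the brightest gene of each marker list. Members and lists were chosen with earlier results of these data known. Figures were drawn with matplotlib 3.10.9.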

Additional observations from a re-analysis of the deposited data

How the results depend on the processing

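Under all 14 alternatives (no filter, the dimmest 50% left out, quantile normalization again, median centring, trend and robust variance, array weights, mean of probesets, the replicate block and leaving out each of the 6 arrays), 0 of the 9 Polycomb genes passed (smallest adjusted p = 0.688), and 0 of the related genes did (smallest 0.162). With the replicate block 5 of all genes tested passed, and 0 of the Polycomb or related genes. The smallest unadjusted limma p of the 9 Polycomb genes was then 0.082, against 0.179 in the main fit. Deviations from the group mean correlated across genes with r = 0.29, 0.02 and 0.19 between same-numbered arrays. Between differently numbered arrays r ran from -0.28 to 0.10. The labels do not say whether equal numbers mark a pair, and the main fit took no pairs.
The median difference of the 9 genes ran from -0.07 to 0.18 when 1 array was left out. Leaving out 1 array changed the sign of 6 of the 9 differences, between -0.35 (without G-CSF replicate 3) and 0.45 (without PBS replicate 2) for Bmi1, -0.032 and 0.24 for Cbx2, -0.37 and 0.092 for Ezh1, -0.22 (without PBS replicate 2) and 0.52 (without PBS replicate 3) for Ezh2, -0.16 and 0.35 for Eed, and -0.069 and 0.17 for Suz12. Rnf2 (-0.67 to -0.19), Cbx7 (0.0097 to 0.29) and Cbx8 (0.048 to 0.25) kept their sign under every alternative. The change of Ezh2 relative to Ezh1 ran from -0.10 to 0.62, of Cbx8 relative to Cbx7 from -0.24 to 0.24 and of Cbx2 relative to Cbx7 from -0.24 to 0.029. Of the other 32 named genes 26 kept their sign; the others ran from -0.39 to 0.10 (Scmh1), -0.27 to 0.085 (Pcgf2), -0.38 to 0.11 (Phc1), -0.25 to 0.014 (Hlf), -1.25 to 0.73 (Vpreb1) and -0.022 to 0.24 (Cd3e). The groups of 1 Polycomb gene no longer overlapped without PBS replicate 3 (Eed), G-CSF replicate 1 (Cbx2), G-CSF replicate 2 (Cbx8) or G-CSF replicate 3 (Cbx7), each higher with G-CSF, where 19.4% to 22% of all genes were then without overlap.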
